A study of Macaca mulatta with 16 samples.

Results

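The chemokines that draw monocytes, dendritic cells and lymphocytes into tissue were followed in bulk RNA sequencing counts from fetal rhesus macaque lung. The 10 genes are CCL2, CCL5, CCL19, CCL20, CCL22, CXCL9, CXCL10, CXCL11, CXCL12 and CXCL13. They were taken by symbol, which matched 1 Ensembl gene ID each among the 22515 genes of the table, and all 10 passed the filter on low counts. The study asked how inflammation before birth, with or without a corticosteroid given to the mother, acts on the preterm lung. It holds 16 animals with 1 library each. The Preterm control animals (n = 4) had no intervention and were delivered at 131 to 135 days of gestation, and the Term control animals (n = 2) had none either and were delivered at 156 to 157 days. In the LPS 16h group (n = 4), 1 mg of lipopolysaccharide, a bacterial cell wall product, was injected into the amniotic fluid 16 hours before delivery at 130 to 131 days. The LPS 5d animals (n = 3) had the same dose 5 days before delivery at 131 to 134 days. In the LPS + Beta-Ac 5d group (n = 3), delivered at 131 to 132 days, the dams had also received betamethasone acetate at 0.125 mg/kg into the muscle. The tissue was whole lung, so every cell type of the organ is mixed in each library, and animals given betamethasone acetate alone were not analysed here.

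Chemokines are small secreted proteins that leukocytes follow through receptors on their surface. CCL2 calls monocytes through CCR2, and CCL5 calls monocytes and T cells. CCL19 guides cells that carry CCR7 to lymphoid tissue, CXCL13 guides B cells through CXCR5, CCL20 acts on CCR6 and CCL22 on CCR4. CXCL9, CXCL10 and CXCL11 share the receptor CXCR3 of activated T cells and NK cells and are classical targets of interferon gamma. CXCL12 is a homeostatic chemokine of stromal cells that acts on CXCR4 and is scavenged by ACKR3.

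Levels are counts per 1000000 (CPM) after scaling by TMM, a method that equalizes the bulk of the genes between libraries. Fold changes are differences of log2 CPM with a prior count of 2, fitted with limma over all animals, and a gene was called when its Benjamini-Hochberg adjusted p was below 0.05 and its fold change was at least 2 in size. No gene lengths were used, so levels were compared between animals and not between genes. Library totals ranged from 20169363 to 28348816 counts outside the LPS 16h group and from 30596371 to 48052891 counts within it, and the first principal component, with 35.3% of the variance, set the LPS 16h libraries apart. A count of 0 allows up to 3 counts, which is 0.0695 to 0.143 CPM depending on the library. In bulk tissue, fewer cells of a type and less RNA per cell cannot be told apart, and this holds for every level below.

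At 16 hours after LPS, 9 of the 10 chemokines were called higher than in Preterm control, and CXCL12 was not. Of all 19199 genes tested, 8.25% were called higher in that comparison and 6.11% lower. At 5 days after LPS, 6 chemokines were called higher than in Preterm control (CCL2, CCL5, CCL19, CCL20, CXCL10 and CXCL13), beside 2.6% of all genes higher and 2.23% lower. With Beta-Ac, 5 were called higher (CCL2, CCL5, CCL19, CCL20 and CXCL13), beside 4.05% of all genes higher and 2.44% lower. No chemokine was called lower in any of the comparisons with limma. The ranges of the animals lay wholly above those of Preterm control for 9 chemokines at 16 hours, for 7 in LPS 5d and for 7 in LPS + Beta-Ac 5d. The share of all genes whose ranges part in this way is not given here. Such counts, here and below, therefore describe these animals and do not set the chemokines apart from other genes. Among the 7 chemokines that averaged at least 4 counts in both groups, the median log2 fold change was 5.45 at 16 hours, 1.58 in LPS 5d and 1.52 in LPS + Beta-Ac 5d, and the medians of all genes were -0.09, -0.00160 and -0.01. These comparisons share the Preterm control animals.

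**Figure D1:**
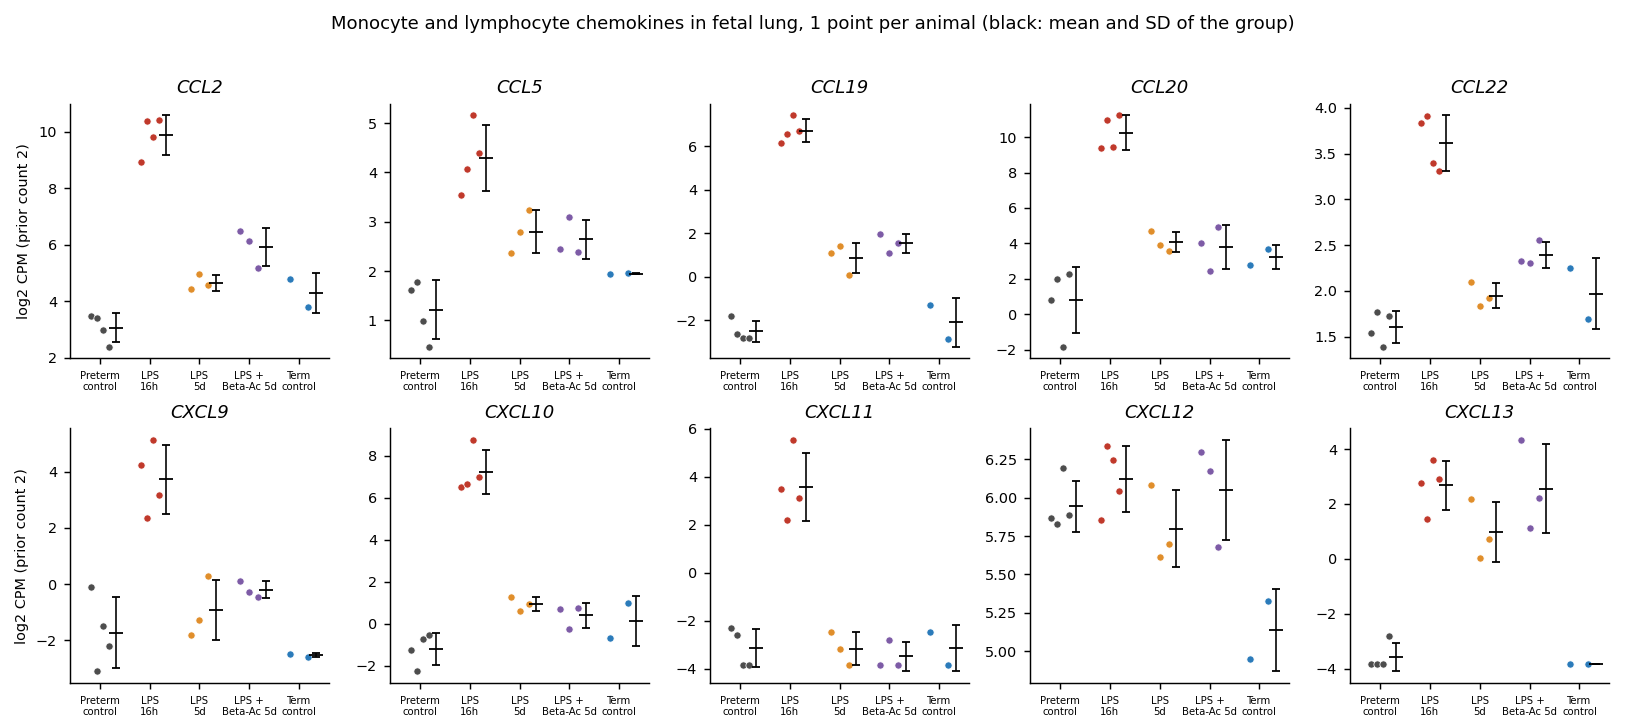
Levels of the 10 chemokines in log2 CPM with a prior count of 2 (vertical axis, its own scale in each panel) by group (horizontal axis), 1 point per animal, with the mean and SD of the group in black. The LPS 16h animals stand above all other animals for CCL2, CCL5, CCL19, CCL20, CCL22, CXCL9, CXCL10 and CXCL11, CXCL13 overlaps between 16 hours and 5 days, and CXCL12 is lowest in the Term control animals.

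CCL2 (ENSMMUG00000000288), the main monocyte chemokine, was measured at 11.1, 10.7, 7.84 and 5.21 CPM in the Preterm control animals and at 483, 1329, 908 and 1377 CPM in the LPS 16h animals. In LPS 5d it stood at 21.4, 31.1 and 23.7 CPM, in LPS + Beta-Ac 5d at 88.8, 70.0 and 35.8 CPM, and in Term control at 27.7 and 13.8 CPM. Every exposed animal was above every Preterm control animal, and every LPS + Beta-Ac 5d animal was above every LPS 5d animal. CCL2 was 113-fold higher at 16 hours (log2 fold change 6.81, SE 0.37, limma adjusted p = 7.63e-09). It was 2.99-fold higher in LPS 5d (log2 fold change 1.58, SE 0.40, limma adjusted p = 0.0181) and 7.21-fold higher in LPS + Beta-Ac 5d (log2 fold change 2.85, SE 0.40, limma adjusted p = 3.72e-04). The LPS 5d call was lost with limma-voom (adjusted p = 0.0540) and without animal 240 (limma adjusted p = 0.0749).

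CCL5 (ENSMMUG00000054796), a chemokine of T cells and monocytes, had 3.004, 3.33, 1.92 and 1.31 CPM in Preterm control and 11.6, 16.7, 35.7 and 21.0 CPM at 16 hours. At 5 days it had 5.05, 6.87 and 9.32 CPM after LPS and 5.35, 8.48 and 5.17 CPM after LPS with Beta-Ac. Both 5-day groups lay between the control and the 16-hour animals, with no overlap on either side, and they overlapped each other. The change against Preterm control was 8.47-fold at 16 hours (log2 fold change 3.08, SE 0.34, limma adjusted p = 5.20e-06), 2.995-fold in LPS 5d (1.58, SE 0.37, limma adjusted p = 0.0103) and 2.69-fold in LPS + Beta-Ac 5d (1.43, SE 0.37, limma adjusted p = 0.0144). The call in LPS + Beta-Ac 5d was lost with delivery age as a covariate (limma adjusted p = 0.160) and without animal 249 (limma adjusted p = 0.0748). The Term control animals had 3.75 and 3.82 CPM, above all Preterm control animals, with no call (limma adjusted p = 0.371).

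CCL20 (ENSMMUG00000013250), the ligand of CCR6 that epithelium makes in inflammation, was low and variable in the controls. Preterm control animals had 1.70, 3.84, 0.213 and 4.77 CPM, and LPS 16h animals had 674, 1987, 694 and 2410 CPM. At 5 days the values were 25.9, 15.1 and 11.9 CPM after LPS and 16.2, 5.44 and 30.1 CPM after LPS with Beta-Ac, and at term they were 6.69 and 13.0 CPM. All animals of these groups exceeded the Preterm control animals, among which animal 113 was lowest with 6 counts. The change was 697-fold at 16 hours (log2 fold change 9.45, SE 0.82, limma adjusted p = 1.39e-06), and 379-fold without animal 113. In LPS 5d it was 9.57-fold (3.26, SE 0.89, limma adjusted p = 0.0265) and in LPS + Beta-Ac 5d 7.95-fold (2.99, SE 0.89, limma adjusted p = 0.0344). Without animal 113 these were 5.21-fold and 4.32-fold, and without animal 249 the LPS + Beta-Ac 5d change was 12.8-fold. Both 5-day calls were near the threshold. They were lost with limma-voom (adjusted p = 0.0507 and 0.0670), in fits of the compared groups alone (limma adjusted p = 0.0595 and 0.100) and with delivery age as a covariate (limma adjusted p = 0.0601 and 0.211). The LPS 5d call was also lost without animal 092, 239, 240 or 242, and the LPS + Beta-Ac 5d call without animal 092, 113, 248 or 255, with limma adjusted p up to 0.101 and 0.130.

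CCL19 (ENSMMUG00000016531), a ligand of CCR7, was barely counted in untreated lung. The Preterm control animals had 5, 2, 2 and 2 counts (0.218, 0.0926, 0.0710 and 0.0729 CPM) and the Term control animals 9 and 2 counts (0.331 and 0.0647 CPM). At 16 hours after LPS it stood at 71.0, 95.6, 172 and 104 CPM. At 5 days it stood at 2.07, 2.57 and 0.998 CPM after LPS and at 3.84, 2.07 and 2.85 CPM after LPS with Beta-Ac. All exposed animals were above all untreated animals, and the 5-day groups overlapped each other. Because the control groups held so few counts, the size is given as the ratio of pooled CPM to Preterm control with an exact interval that covers counting error only. That ratio was 1056 at 16 hours (95% interval 590 to 2116), 17.7 in LPS 5d (9.60 to 36.2) and 26.5 in LPS + Beta-Ac 5d (14.5 to 53.8). All of these differences were called (limma adjusted p = 3.40e-10, 3.08e-04 and 2.56e-05).

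CCL22 (ENSMMUG00000052508), a dendritic cell and macrophage product that draws CCR4+ T cells, had the smallest of the 16-hour fold changes that were called. It had 2.83, 3.33, 2.56 and 3.24 CPM in Preterm control and 14.2, 14.97, 10.5 and 9.86 CPM at 16 hours, a change of 4.02-fold (log2 fold change 2.01, SE 0.18, limma adjusted p = 5.22e-07). In LPS 5d the animals had 4.21, 3.49 and 3.71 CPM, a log2 fold change of 0.34 that was not called (limma adjusted p = 0.274). In LPS + Beta-Ac 5d they had 4.94, 4.86 and 5.82 CPM. These lay above all LPS 5d and Preterm control animals. The log2 fold change of 0.79 against Preterm control had a limma adjusted p of 0.0112 but stayed under the 2-fold limit. Over the other settings the adjusted p rose to as much as 0.0604 (limma or limma-voom).

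CXCL13 (ENSMMUG00000023186), the B cell chemokine, had no count in 3 Preterm control animals, 2 counts in animal 209 (0.0729 CPM) and none in either Term control animal. The LPS 16h animals had 6.71, 2.66, 12.1 and 7.44 CPM. The LPS 5d animals had 4.47, 0.960 and 1.57 CPM, and the LPS + Beta-Ac 5d animals had 20.05, 2.14 and 4.55 CPM. The highest animal of all 16 was thus an LPS + Beta-Ac 5d animal, number 248, and the exposed groups overlapped one another while none reached down to the untreated animals. The pooled CPM ratio to Preterm control was 372 at 16 hours (95% interval 103 to 3078, counting error only), 121 in LPS 5d (33.2 to 1011) and 444 in LPS + Beta-Ac 5d (122 to 3670), and each was called (limma adjusted p = 2.19e-06, 7.27e-04 and 4.50e-05). Animal 248 held 532 of the 709 counts of LPS + Beta-Ac 5d, and without it the ratio was 166, below that of LPS 16h. Without animal 239 the LPS 5d ratio was 61.7, and without animal 209 the Preterm control group held 0 counts. The LPS 5d call was lost with limma-voom (adjusted p = 0.0999).

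CXCL9, CXCL10 and CXCL11 lie next to one another, with 0 other protein-coding genes between them in the RefSeq annotation of the T2T-MMU8v2.0 assembly. CXCL10 (ENSMMUG00000020903) had 0.348, 0.139, 0.532 and 0.619 CPM in Preterm control and 91.4, 100.3, 431 and 129 CPM at 16 hours, with no overlap. It was 344-fold higher (log2 fold change 8.43, SE 0.52, limma adjusted p = 1.48e-08). At 5 days it had 2.32, 1.46 and 1.85 CPM after LPS, above every Preterm control animal (4.39-fold, log2 fold change 2.13, SE 0.56, limma adjusted p = 0.0191). With Beta-Ac it had 1.58, 0.761 and 1.62 CPM, also above every Preterm control animal, with a log2 fold change of 1.60 that was not called (limma adjusted p = 0.0629). The LPS 5d call was lost with limma-voom (adjusted p = 0.311) and without animal 101, 239 or 242 (limma adjusted p up to 0.0766). The LPS + Beta-Ac 5d difference passed in the fit of those 2 groups alone (limma adjusted p = 0.0452) and with delivery age as a covariate (limma adjusted p = 0.0272). It also passed without animal 209 or 035 (limma adjusted p = 0.0475 and 0.0227). Its adjusted p rose to as much as 0.182 with 1 other animal left out (limma) and 0.466 over the other settings (limma or limma-voom).

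CXCL9 (ENSMMUG00000043801) had 0.871, 0.0463, 0.284 and 0.146 CPM in Preterm control and 18.8, 5.03, 34.9 and 8.98 CPM at 16 hours. It was 43.7-fold higher at 16 hours (log2 fold change 5.45, SE 0.66, limma adjusted p = 1.35e-05). By 5 days its animals overlapped Preterm control, at 0.218, 0.346 and 1.14 CPM after LPS and 1.02, 0.761 and 0.655 CPM with Beta-Ac, and neither difference was called (limma adjusted p = 0.516 and 0.164). CXCL11 (ENSMMUG00000053130) was counted at 313, 169, 2004 and 296 reads in the LPS 16h libraries, which is 11.1, 4.49, 46.4 and 8.61 CPM, and at 0 to 3 reads in each of the other 12 libraries. Its pooled CPM at 16 hours was 389 times that of Preterm control (95% interval 166 to 1199, counting error only, limma adjusted p = 9.65e-07), a ratio that went to 156 without animal 035 and to 749 without animal 092. At 5 days CXCL11 was not detectable above Preterm control at this depth, with 4 reads over the LPS 5d animals, 2 over the LPS + Beta-Ac 5d animals and 5 over the Preterm control animals.

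The LPS 16h animals did not rank alike for all chemokines. Animal 035 was the highest of the 4 for 6 chemokines, namely CXCL9, CXCL10, CXCL11, CCL5, CCL19 and CXCL13, and stood 1.40, 1.52 and 1.96 log2 units above the group mean for CXCL9, CXCL10 and CXCL11. For CCL2 and CCL20 animal 038 was highest, at 0.54 and 0.98 log2 units above the mean, and animal 029 followed at 0.49 and 0.70. Animal 029 was also lowest for CXCL9, CXCL11 and CXCL13. Animal 026 was the lowest of the 4 for 6 of the 10 chemokines. IFNG, which encodes interferon gamma, had 1.74 CPM in animal 035 and 0.710, 0.293 and 0.465 CPM in animals 026, 029 and 038. Animal 035 was highest for 11 of the 14 genes of the interferon gamma list and animal 029 for the other 3. In the NF-kB and lymphotoxin list of 13 genes no animal led in this way, with animals 029, 035 and 038 highest for 4, 4 and 5 genes, and animal 026 was lowest for 10. These are ranks of 4 animals and were given no test, and the part of these genes in the chemokine levels was not tested.

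**Figure D2:**
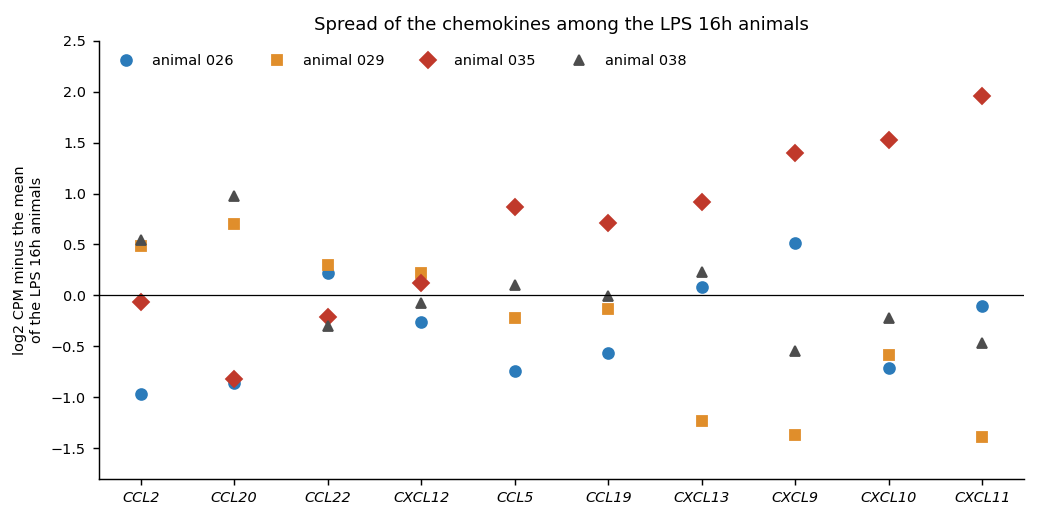
Level of each chemokine in each LPS 16h animal as log2 CPM minus the mean of the 4 animals (vertical axis), by chemokine (horizontal axis). Animal 035 stands 1.40 to 1.96 above the mean for CXCL9, CXCL10 and CXCL11, and animals 029 and 038 stand 0.49 to 0.98 above it for CCL2 and CCL20.

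CXCL12 (ENSMMUG00000012181) behaved unlike the other chemokines. It had 58.4, 56.7, 73.1 and 59.0 CPM in Preterm control, 57.9, 80.8, 75.7 and 65.8 CPM at 16 hours, 67.8, 48.8 and 51.8 CPM in LPS 5d and 78.6, 72.2 and 51.2 CPM in LPS + Beta-Ac 5d, and these groups overlapped. The log2 fold change against Preterm control was 0.18 at 16 hours (95% interval -0.17 to 0.52), -0.15 in LPS 5d (-0.51 to 0.22) and 0.11 in LPS + Beta-Ac 5d (-0.26 to 0.48). Scaled by total counts, the 16-hour value turned to -0.02. The Term control animals had 30.8 and 40.0 CPM, below every animal of all other groups. Their log2 fold change was -0.81 (SE 0.20), with a limma adjusted p of 0.0348 and a size under the 2-fold limit. Over the other settings the adjusted p rose to as much as 0.0796 (limma or limma-voom). With 1 animal left out, the log2 fold change lay between -0.997 and -0.62. Marker genes of fibroblasts, which make CXCL12, summed to 4622 to 7557 CPM in Preterm control and to 2831 to 3087 CPM in Term control. The sums were 4566 to 5602 CPM at 16 hours and 2971 to 5906 CPM in LPS 5d. In LPS + Beta-Ac 5d they were 2856 to 4090 CPM. Without COL1A1, the other 3 markers summed to 1748 to 2343 CPM in Preterm control and to 1370 to 1674 CPM in Term control. The part of fibroblasts in the level of CXCL12 was not tested.

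**Figure D3:**
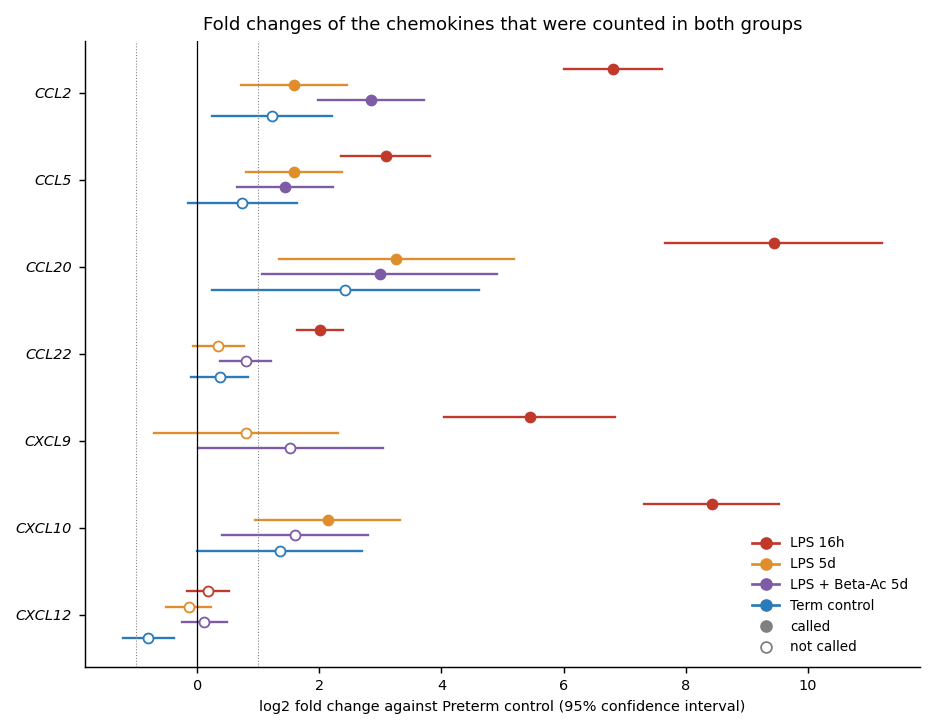
Fold changes against Preterm control on a log2 scale (horizontal axis) with 95% confidence intervals for the chemokines (vertical axis) that averaged at least 4 counts in both groups. Filled points were called, open points were not, and dotted lines mark the 2-fold limit. The 16-hour values reach from 0.18 for CXCL12 to 9.45 for CCL20.

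Set against LPS 5d, the LPS 16h animals had 8 chemokines called higher, all but CXCL12 and CXCL13. In that comparison 7.93% of all genes were called higher and 6.66% lower. The ranges of the 2 groups did not overlap for these 8. CXCL10 was 78.4-fold higher at 16 hours than at 5 days (log2 difference 6.29, SE 0.56, limma adjusted p = 1.01e-06), CCL20 72.8-fold (6.19, SE 0.89, limma adjusted p = 1.48e-04) and CCL19 57.8-fold (5.85, SE 0.42, limma adjusted p = 1.12e-07). CCL2 was 37.7-fold higher (5.24, SE 0.40, limma adjusted p = 3.73e-07) and CXCL9 25.2-fold (4.65, SE 0.71, limma adjusted p = 1.44e-04), or 38.3-fold without animal 242. The differences of CCL22 and CCL5 were 3.17-fold (1.66, SE 0.19, limma adjusted p = 1.08e-05) and 2.83-fold (1.5004, SE 0.37, limma adjusted p = 0.00521), and that of CCL5 missed the threshold with delivery age as a covariate (limma adjusted p = 0.0604). CXCL13 was 3.25-fold higher at 16 hours with a limma adjusted p of 0.0660. This value fell to between 0.0264 and 0.0445 without animal 029, 239, 248 or 249 and to 0.0488 with all libraries thinned to the smallest total. It also rose, to as much as 0.254 with 1 other animal left out (limma) and 0.107 over the other settings (limma or limma-voom).

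Adding Beta-Ac to LPS changed no chemokine past the threshold at 5 days, and 0.0885% of all genes were called higher and 0% lower in that comparison. At an unadjusted p below 0.05 stood 3 chemokines with limma (CCL2, CCL22 and CXCL13) and 1 with limma-voom, which also called 0. CCL2 was 2.41-fold higher with Beta-Ac (log2 difference 1.27, 95% interval 0.34 to 2.20, limma adjusted p = 0.609), and CCL2 and CCL22 were the chemokines whose groups did not overlap. CXCL13 was 2.99-fold higher (1.58, 0.03 to 3.14), a value that rests on single animals, since the log2 difference was 0.69 without animal 248, 2.29 without animal 249 and 2.18 without animal 239. For CCL20 the log2 difference was -0.27 (-2.33 to 1.79), for CXCL10 -0.53 (-1.81 to 0.74), for CXCL9 0.73 (-0.89 to 2.34), for CCL19 0.67 (-0.29 to 1.64) and for CCL5 -0.15 (-0.99 to 0.69). With 3 animals in each group these intervals are wide, and likeness of the groups is not shown by them. Marker genes of monocytes and macrophages summed to 298 to 348 CPM in LPS 5d and to 503 to 878 CPM in LPS + Beta-Ac 5d, and their part in the difference of CCL2 was not tested.

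Between Term and Preterm control, again 0 chemokines were called with limma or limma-voom, and 3 had an unadjusted p below 0.05 with each tool. In that comparison 1.11% of all genes were called higher and 0.953% lower. The Term control animals lay above all Preterm control animals for CCL2, CCL5 and CCL20 and below them for CXCL12, and the other 6 chemokines overlapped. With 2 animals against 4, ranges can part without a difference between the groups, and the share of all genes that did so is not given here. CCL20 was 5.37-fold higher at term (log2 fold change 2.42, SE 1.01, limma adjusted p = 0.211), or 2.92-fold without Preterm control animal 113, and CCL2 2.33-fold (1.22, SE 0.46, limma adjusted p = 0.160). CXCL9 had 3 counts in each Term control library against 1 to 20 in the Preterm control libraries.

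By median level, LPS 16h was the highest group for 9 chemokines, and the gap to the next group was free of overlap for all of them but CXCL13. For CCL2 the order went on with LPS + Beta-Ac 5d, LPS 5d, Term control and Preterm control, where LPS 5d and Term control overlapped. For CCL5 it went on with LPS 5d, LPS + Beta-Ac 5d, Term control and Preterm control, and the 5-day groups overlapped. For CCL20 the order below LPS 16h was LPS + Beta-Ac 5d, LPS 5d, Term control and Preterm control, and only the Preterm control animals were clear of their neighbour. For CCL19 the 5-day groups overlapped, as did the Term control and Preterm control animals, with a gap between these pairs, and CXCL13 had its gap below LPS 5d. For CCL22 the order below LPS 16h was LPS + Beta-Ac 5d, Term control, LPS 5d and Preterm control, where Term control and LPS 5d overlapped. For CXCL10 all neighbours below LPS 16h overlapped, as they did for CXCL9 and CXCL11. For CXCL12 the order was LPS + Beta-Ac 5d, LPS 16h, Preterm control, LPS 5d and Term control, with a gap only before Term control.

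Of the chemokine receptors listed, 18 of 19 were tested. The number called higher against Preterm control was 5 at 16 hours, 5 in LPS 5d, 8 in LPS + Beta-Ac 5d and 2 in Term control, and none was called lower. The median log2 fold change of the list was 0.64, 0.56, 0.94 and 0.33 in these comparisons. CCR2, the monocyte receptor of CCL2, had 2.64 to 5.399 CPM in Preterm control and 17.3 to 45.1 CPM at 16 hours (log2 fold change 2.71, SE 0.38, limma adjusted p = 5.91e-05), and its 5-day values were not called. CCR7, the receptor of CCL19, was also called at 16 hours, with a log2 fold change of 1.51 (SE 0.27, limma adjusted p = 4.89e-04).

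CXCR3, the receptor of CXCL9, CXCL10 and CXCL11, was not called at 16 hours, when its ligands were highest, and was called at 5 days. Of these ligands, CXCL10 was still called in LPS 5d. The level of CXCR3 was 0.697, 0.463, 0.177 and 0.437 CPM in Preterm control and 0.710, 0.585, 0.324 and 0.581 CPM at 16 hours, with a log2 fold change of 0.34 that was not called (limma adjusted p = 0.510). At 5 days CXCR3 was at 2.40, 1.15 and 1.33 CPM after LPS and 2.22, 2.79 and 1.27 CPM with Beta-Ac, above every Preterm control and LPS 16h animal. These were called (log2 fold changes 1.76 and 2.12, SE 0.41 and 0.41, limma adjusted p = 0.00931 and 0.00223), and CXCR3 was lower at 16 hours than in LPS 5d (log2 difference -1.42, SE 0.41, limma adjusted p = 0.0126). The receptors CXCR6 and XCR1 of T cells and of a dendritic cell subset were likewise called higher in both 5-day groups and lower at 16 hours than in LPS 5d, and are named here after their values were seen. With CXCR3 they are the 3 receptors called lower at 16 hours than in LPS 5d, and 5 were called higher.

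CCR6, the receptor of CCL20, was called in LPS + Beta-Ac 5d (1.13 to 1.57 CPM in Preterm control against 3.39 to 5.88 CPM, log2 fold change 1.72, SE 0.25, limma adjusted p = 3.04e-04) and had log2 fold changes of 0.62 at 16 hours and 0.83 in LPS 5d, under the 2-fold limit. CCR4, the receptor of CCL22, was low throughout and was called in LPS + Beta-Ac 5d (log2 fold change 1.75, SE 0.48, limma adjusted p = 0.0206). CXCR5, the receptor of CXCL13, was not called in any comparison, with 1.68 to 4.35 CPM in Preterm control and 3.97 to 5.92 CPM in LPS + Beta-Ac 5d. CXCR4 and ACKR3, which bind CXCL12, were not called in any comparison either, and their log2 fold changes against Preterm control lay between -0.53 and 0.38. ACKR1, the venular receptor that carries inflammatory chemokines across endothelium, went from 1.02 to 3.09 CPM in Preterm control to 112 to 159 CPM at 16 hours (log2 fold change 6.10, SE 0.29, limma adjusted p = 8.62e-10), and it was also called in LPS 5d (1.66), in LPS + Beta-Ac 5d (1.67) and in Term control (2.40).

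**Figure D4:**
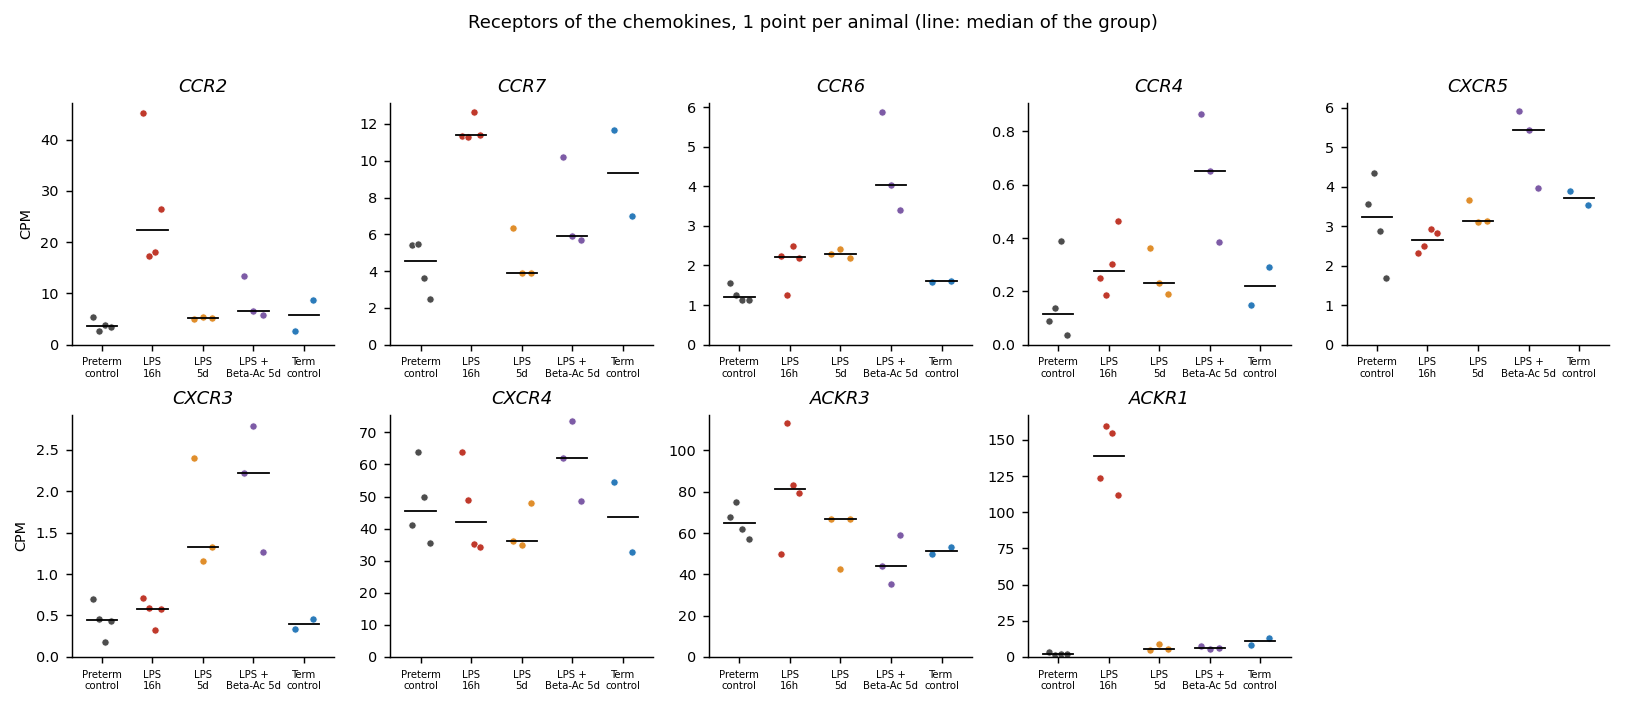
Levels in CPM (vertical axis from 0, its own scale in each panel) of 9 receptors of the chemokines by group (horizontal axis), 1 point per animal, with a line at the median. ACKR1 stands at 112 to 159 CPM at 16 hours, and CXCR3 is at 1.15 CPM or above in all animals of the 5-day groups and at or below 0.710 CPM in all others.

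Of 14 interferon gamma pathway genes, 11 were called higher at 16 hours, 1 in LPS 5d, 2 in LPS + Beta-Ac 5d and 0 in Term control, and 0 were called lower in these. IDO1, which degrades tryptophan, was called in each of the exposed groups, with log2 fold changes of 4.50, 1.28 and 3.11. IRF1, a transcription factor that binds interferon target genes, had 41.4 to 48.6 CPM in Preterm control, 257 to 672 CPM at 16 hours and 58.7 to 82.8 CPM in LPS 5d, and was called at 16 hours only among the comparisons with Preterm control (log2 fold change 3.07, SE 0.22, limma adjusted p = 6.60e-08). WARS1 was called at 16 hours with a log2 fold change of 2.86. IDO1 was also the gene of these lists called between LPS + Beta-Ac 5d and LPS 5d (log2 difference 1.83, limma adjusted p = 0.0362), a call not made by limma-voom, by the fit of those groups alone or with delivery age as a covariate, and lost in 11 of the 16 fits that each left out 1 animal.

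Of 13 genes of NF-kB and lymphotoxin signalling, which induces CCL2, CCL19, CCL20 and CXCL13, 10 were called higher at 16 hours, 4 in LPS 5d, 6 in LPS + Beta-Ac 5d and 2 in Term control. IL1B, the cytokine interleukin 1 beta, had 0.602 to 1.78 CPM in Preterm control, 778 to 1639 CPM at 16 hours, 6.14 to 7.27 CPM in LPS 5d and 6.42 to 38.1 CPM in LPS + Beta-Ac 5d. IL6 and TNF, at most 0.249 and 0.219 CPM in Preterm control, stood at 110 to 252 and 20.4 to 62.2 CPM at 16 hours. LTA, a lymphotoxin subunit, was called at every exposure, and NFKBIA, the inhibitor that NF-kB induces, had log2 fold changes of 3.75 at 16 hours and 1.10 in LPS 5d.

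Other chemokines for mononuclear cells were called higher in 11 of 18 cases at 16 hours, with 1 lower, and in 4 of 18 with 1 lower in each 5-day group. Term control had 2 called higher. The call of the lower gene in LPS 5d was lost in 12 of the 16 fits that each left out 1 animal. CCL7, a monocyte chemokine like CCL2, had no count in any Preterm control animal and 3.44 to 6.41 CPM at 16 hours. CCL3 and CCL8 had log2 fold changes of 5.85 and 4.64 at 16 hours. CXCL17, a mucosal chemokine, was called in all 4 comparisons with Preterm control, and CXCL14 was called lower in all 3 exposed groups (log2 fold changes -1.43, -1.61 and -2.23). The 4 tested neutrophil chemokines were all called higher at 16 hours and in LPS + Beta-Ac 5d, 3 in LPS 5d and 2 in Term control, and the 4 in LPS + Beta-Ac 5d became 2 without animal 092, 113 or 248. The list was led by CXCL8 with log2 fold changes of 11.14 at 16 hours, 6.55 in LPS + Beta-Ac 5d, 4.32 in LPS 5d and 4.20 in Term control. In the list of chemokine processing and presentation, MMP9, a protease that trims chemokines, and CD74 were called higher in all 4 comparisons, SDC4 at 16 hours and DPP4, which cuts CXCL10, in LPS + Beta-Ac 5d. Calls in Term control rested on few animals. Without Term control animal 200, the 2 genes called higher there became 1 for the receptors, 1 for the other mononuclear cell chemokines, 1 for the neutrophil chemokines, 0 for NF-kB and lymphotoxin signalling and 0 for chemokine processing and presentation, and leaving out animal 092, 101, 113, 209 or 201 also lowered 1 or more of these counts.

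Marker genes of the leukocytes that these chemokines attract moved unequally. The 10 monocyte and macrophage markers summed to 115 to 171 CPM in Preterm control and 898 to 1030 CPM at 16 hours. The sums were 298 to 348 CPM in LPS 5d and 503 to 878 CPM in LPS + Beta-Ac 5d. In Term control they were 244 to 403 CPM. Against Preterm control, 8 of them were called higher at 16 hours, 6 in LPS 5d, 10 in LPS + Beta-Ac 5d and 1 in Term control. CD14 alone had 28.6 to 43.5 CPM in Preterm control and 440 to 638 CPM at 16 hours. In LPS + Beta-Ac 5d it had 120 to 170 CPM. The other 9 markers summed to 84.5 to 142 CPM in Preterm control and 341 to 479 CPM at 16 hours. In LPS + Beta-Ac 5d they summed to 383 to 707 CPM, with a median of 613 CPM against 425 CPM at 16 hours. The 8 neutrophil markers went from 18.5 to 51.6 CPM in Preterm control to 1330 to 2084 CPM at 16 hours. Of these, 5 were called higher at 16 hours. S100A9 alone had 3.22 to 7.74 CPM in Preterm control and 776 to 1197 CPM at 16 hours. The other 7 neutrophil markers summed to 15.3 to 48.2 and 554 to 887 CPM, with a higher mean at 16 hours for 5 of them. The 9 T cell markers summed to 64.7 to 146 CPM in Preterm control and to 52.8 to 72.0 CPM at 16 hours, where CD3D was called higher and LCK lower. LCK alone had 44.6 to 113 CPM in Preterm control and 18.3 to 36.0 CPM at 16 hours, and the other 8 T cell markers summed to 20.2 to 35.3 and 31.2 to 37.0 CPM, with a higher mean at 16 hours for 6 of them. The 6 B cell markers summed to 18.03 to 31.3 CPM in Preterm control and to 40.3 to 73.2 CPM in LPS + Beta-Ac 5d, with 4 called higher there and 0 at 16 hours. The 6 NK cell markers summed to 30.4 to 49.6 CPM in Preterm control, to 67.9 to 87.9 CPM at 16 hours and to 73.1 to 89.3 CPM in LPS + Beta-Ac 5d. Of them, 1 was called higher at 16 hours and 4 in LPS + Beta-Ac 5d. GZMB alone had 7.61 to 13.4 CPM in Preterm control and 30.8 to 43.6 CPM at 16 hours. The other 5 NK cell markers summed to 22.8 to 36.1 and 37.0 to 44.9 CPM in these groups. The 6 dendritic cell markers summed to 74.7 to 92.5 CPM in Preterm control and 123 to 176 CPM at 16 hours. CD83, which activated leukocytes of other kinds express too, had 13.4 to 19.9 and 61.3 to 121 CPM in these groups, and the other 5 summed to 60.3 to 76.5 CPM in Preterm control and 54.6 to 61.3 CPM at 16 hours. Lung epithelial markers, the defining genes of the tissue, summed to 6893 to 11144 CPM in Preterm control and 8064 to 20474 CPM at 16 hours. Their sums were 15555 to 27791 CPM in LPS 5d and 16148 to 28529 CPM in LPS + Beta-Ac 5d. In Term control they were 16417 to 22971 CPM. The part of any cell type in the chemokine levels was not tested.

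**Figure D5:**
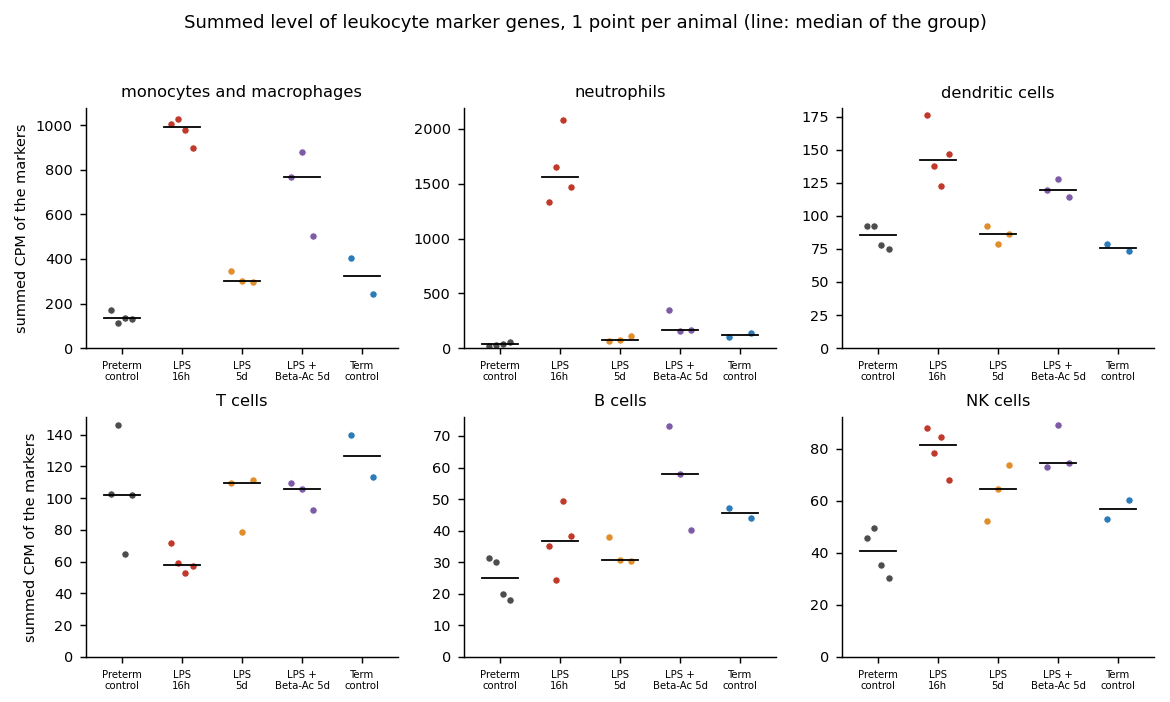
Summed CPM of marker genes (vertical axis from 0, its own scale in each panel) of 6 leukocyte types by group (horizontal axis), 1 point per animal, with a line at the median. Monocyte and macrophage markers stand at 898 to 1030 CPM and neutrophil markers at 1330 to 2084 CPM at 16 hours. CD14 makes up 440 to 638 CPM of the former sum and S100A9 776 to 1197 CPM of the latter. LCK makes up 44.6 to 113 CPM of the T cell sum in Preterm control, and CD83 makes up 61.3 to 121 CPM of the dendritic cell sum at 16 hours.

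The genes whose log2 CPM ran most alike with each chemokine over the 16 libraries were named by Pearson's r, as a description in which the separation of the LPS 16h libraries weighs heavily. CCL2 ran with CCL7 (r = 0.991) and RELB (0.988), CCL19 with IKBKE (0.987) and RELB (0.983), and CCL20 with NFKBIA (0.965). CXCL10 ran with IRF1 (0.985) and CD40 (0.983), CXCL11 with FADS1 (0.977) and PSME2 (0.973), and CXCL9 with OPTN (0.957). CCL5 ran with IL15RA (0.941), CCL22 with TNFRSF1B (0.964) and CXCL13 with C3 (0.938). CXCL12 ran with HNRNPL at r = 0.858, the lowest leading value of the 10.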

How the data were processed

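Fetal lung RNA of 16 rhesus macaques in 5 groups, taken from the labels, was analysed. The authors selected polyadenylated RNA, sequenced 75 bp paired-end reads, assigned them with kallisto to the Mmul_10 build and summed them per gene with tximport. The authors deposited 1 count per Ensembl gene and library, in whole numbers and not normalized. For the tool versions and any rounding of estimated counts, no source used here gave an answer. The layout of the table kept its unit from being checked by code as counts, so no count model was run, in place of the planned one. In R 4.3.3, counts were scaled by TMM (trimming 30% of ratios and 5% of means), turned into log2 CPM with a prior count of 2 and fitted with limma 3.58.1 (trend, robust) with 1 mean per group over all animals. Genes with 0.371 CPM (10 counts in the median library) in 2 animals and 15 counts in total were tested, 19199 of 22515. Symbols came from a table of Ensembl IDs, which named 17256 genes. Listed genes whose symbol matched no ID were not analysed here, and 2 other listed genes are not reported here and were left out of the list counts.

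The script was tested on simulated data. The chemokines, gene lists, tests and named genes (the 10 chemokines, their receptors, up to 3 called genes of a list in a comparison and the most alike genes) were chosen with earlier results of these data known. Where a group averaged under 4 counts, a pooled CPM ratio replaces the fitted fold change. The intervals of pooled ratios and the floors cover counting error only. The intervals of log2 fold changes come from the limma fit and carry the spread between animals. The labels give neither batch nor sex, and nothing more than the animal numbers says that samples are independent. Replicate libraries differed by more than sampling noise (chi-square per degree of freedom at least 32.5). Alternatives were other scalings, limma-voom, another prior count, no filter, no minimum fold change, fits of the compared groups alone, delivery age as a covariate and each animal left out. Thinning of libraries and marker sums without their leading gene were chosen after seeing the data. Chemokine sequences were not used here.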

Additional observations from a re-analysis of the deposited data

Results flagged for a closer look

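Within Preterm control, animal 113 stood apart for CXCL12, with a gap to its nearest neighbour of 0.841 of the group's range in log2 CPM (73.1 CPM against 56.7 to 59.0 CPM), and animal 209 stood apart for CXCL13 with a share of 1, which rests on 2 counts against none. About 1 group in 20 is picked out in this way by chance, and 20 groups of 4 animals were examined.

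The effect of LPS against Preterm control differed between 16 hours and 5 days, by a test of the difference itself, for 8 chemokines. The log2 difference was 5.24 for CCL2, 1.5 for CCL5, 5.85 for CCL19, 6.19 for CCL20, 1.66 for CCL22, 4.65 for CXCL9 and 6.29 for CXCL10, and for CXCL11 the pooled CPM ratio was 362 (145 without animal 035 and 914 without animal 239).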

How the results depend on the processing

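No paired analysis was possible because the groups share no animal numbers. Of 55 log2 fold changes of single chemokines, 50 kept direction and call with limma-voom and 54 with total count scaling. All 55 did so with median-of-ratios scaling, with a prior count of 0.5 and without the filter. With limma-voom, 2 chemokines in place of 6 were called higher in LPS 5d against Preterm control. With no minimum fold change, 1 was called lower in Term control, CXCL12, whose adjusted p rose to as much as 0.0796 over the other settings (limma or limma-voom). With total count scaling the median of all genes moved by -0.20 at 16 hours against Preterm control (1258 genes higher and 1936 lower, in place of 1583 and 1174) and by -0.18 against LPS 5d (1163 and 1899, in place of 1522 and 1278), and CXCL12 turned to -0.0242 at 16 hours. Leaving out 1 animal turned the sign of CCL19 at term (-0.38 to 1.19), and of CCL5 (-0.38 to 0.0659) and CCL20 (-0.83 to 0.40) between LPS + Beta-Ac 5d and LPS 5d. None of these was called. With 1 Term control animal left, it is assumed to vary like the other groups. The cause of these shifts was not tested. Depth limits CXCL11 outside 16 hours and CCL19 and CXCL13 in the untreated animals.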

Other observations

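Other ligands of the receptors described above had their own courses, and they are named here after their values were seen. CCL21, which acts on CCR7 like CCL19 but is made by lymphatic endothelium and lymphoid stroma, had 60.3 to 83.7 CPM in Preterm control, 84.1 to 99.8 CPM at 16 hours, 43.7 to 92.4 CPM in LPS 5d and 40.0 to 61.7 CPM in LPS + Beta-Ac 5d. It was not called in any comparison (limma adjusted p against Preterm control from 0.0746 to 0.670), and its log2 fold change at 16 hours was 0.27 (SE 0.23). CXCL16, the ligand of CXCR6, was called higher at 16 hours, with 49.7 to 51.9 CPM in Preterm control and 220.2 to 256.5 CPM (log2 fold change 2.22, SE 0.10, limma adjusted p = 5.99e-10), and in LPS 5d with 94.7 to 128 CPM (1.14, SE 0.11, limma adjusted p = 7.20e-05). CXCR6 itself had 0.328 to 0.497 CPM in Preterm control, 0.585 to 0.994 CPM at 16 hours and 1.20 to 1.96 CPM in LPS 5d.

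Within LPS + Beta-Ac 5d, animal 248 had the highest level of 5 chemokines (CCL2, CCL19, CXCL9, CXCL12 and CXCL13). It was below both other animals for none, and for CXCL11 it shared the lowest level with animal 255, each with 0 counts. Of the leukocyte marker sums, the same animal was highest of its group for neutrophils (345 CPM against 153 and 169 CPM), B cells (73.2 CPM against 57.9 and 40.3 CPM) and T cells (109.8 CPM against 105.7 and 92.6 CPM). It lay between the others for monocytes and macrophages (767 CPM against 878 and 503 CPM) and dendritic cells (119 CPM against 128 and 114 CPM). It was lowest for NK cells (73.1 CPM against 89.3 and 74.6 CPM). Without LCK, the T cell sums of the group had a median of 53.25 CPM and a maximum of 53.26 CPM, so the T cell rank is not firm.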
